A study of Sus scrofa with 12 samples.

Results

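Chromatin accessibility was examined at 10 genes of the hypoxia response and of the capillary endothelium in pig skeletal muscle, out of 19533 annotated protein-coding genes. The genes were VEGFA and ANGPT1 (secreted ligands), KDR, FLT1 and TEK (their receptors), HIF1A and EPAS1 (oxygen-sensing transcription factors), PECAM1 and CDH5 (endothelial junction proteins) and ERG (an endothelial transcription factor). An accessible region was assigned to a gene when its midpoint lay in the Sscrofa11.1 gene body or within 10 kb of it. This gave 75 regions of the 140081 in the whole table, from 117 of its 217213 intervals. The assignment used gene names and positions and no counts.

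The study compared the longissimus dorsi muscle of 3 Luchuan and 3 Duroc boars by ATAC-seq, in which a transposase inserts sequencing adapters into open chromatin. Luchuan is a Chinese indigenous fat-type breed and Duroc is a lean breed, and all boars were 180 days old, were raised under the same feeding conditions and were fasted overnight before slaughter. The peak table gave a single read count per breed for each interval, so the values below are 1 Luchuan count and 1 Duroc count, with no replicates and no test between breeds. The muscle libraries of RNA-seq from the same breeds were not analysed here.

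In skeletal muscle, capillaries run along the fibers and deliver oxygen and fatty acids. When oxygen is short, the alpha subunits HIF-1alpha and HIF-2alpha escape degradation and activate genes such as VEGFA, whose protein is sensed by the receptors KDR and FLT1 on endothelial cells. ANGPT1, made by cells next to the endothelium, signals through TEK and keeps vessels stable.

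The table held more Duroc than Luchuan reads, with a median of 61 Duroc and 38 Luchuan reads per region, and with 47 and 35 in the 75 regions of the 10 genes. Luchuan counts were therefore multiplied by 1.48, the factor that set the median ratio of the regions common to both breeds to 1. The ratios below are log2 of scaled Luchuan over Duroc reads, with 1 read added to each, and a value above 0 means more reads in Luchuan. Each interval in brackets is a 95% Clopper-Pearson interval. It covers counting error only, and neither the spread between boars nor PCR duplicates. Scaling by the clean reads of each breed moved the median of all gene ratios from -0.01 to -0.21, since it lowered every ratio by 0.195. Any ratio printed between 0 and 0.195, of a region, a gene or a list, thus turned below 0 on that scale.

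The tissue and the genes' cell type were checked first through the reads per kb of gene with its 10 kb on each side. The 10 muscle fiber genes, such as ACTA1, CKM and DES, lay at a median percentile of 99.8 among all genes for both breeds together, and the labeled tissue was muscle. The endothelial markers lay at a median percentile of 41.8, against 23.9 for markers of liver, gut, lung, pancreas, skin and neurons, and 23 of the 25 endothelial markers found in the annotation had a region. SOX17 and TAL1, factors of endothelial and blood cells, had none. Of the examined genes that mark endothelial cells, PECAM1 lay at the 34.4 percentile. ERG, FLT1, KDR, CDH5 and TEK lay at 22.1, 19.5, 19.2, 17.0 and 17.0, below the 23.9 of the other-tissue markers. Of the muscle capillary markers, CD36, CA4, AQP1 and RGCC had regions, and GPIHBP1 and FABP4 had none. In this bulk tissue, fewer cells of a type and less open chromatin per cell cannot be told apart.

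The 10 genes fell into a read-rich and a read-poor set. VEGFA, HIF1A and EPAS1 held 73.4% of the reads of all 10 genes, and lay at the 87.1, 79.3 and 72.5 percentiles of reads per kb. VEGFA had 33.6 Luchuan and 47.0 Duroc reads per kb, HIF1A had 24.0 and 37.2, and EPAS1 had 22.6 and 26.4, above the medians over all genes of 9.90 in Luchuan and 14.6 in Duroc. The other 7 genes lay below those medians in both breeds. PECAM1 came next with 4.56 Luchuan and 7.38 Duroc reads per kb, followed by ANGPT1 with 2.38 and 2.76, and ERG with 1.28 and 2.04. KDR, FLT1, CDH5 and TEK had between 0.50 and 1.16 reads per kb in either breed. KDR, FLT1, TEK, PECAM1, CDH5 and ERG, whose products mark endothelial cells, held 26 regions and 2755 reads together, so these ratios rest on few reads.

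**Figure D1:**
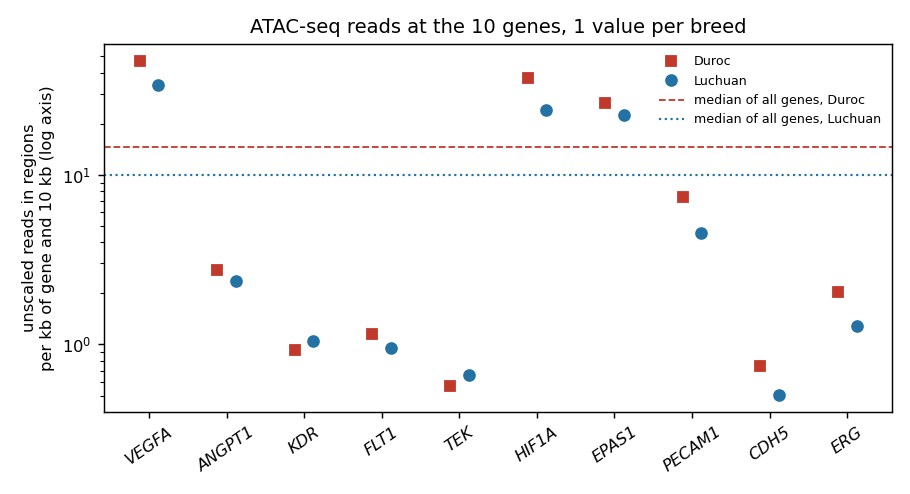
Unscaled reads in accessible regions per kb of gene and 10 kb flanks (log axis) for the 10 genes, with 1 value for Duroc (squares) and 1 for Luchuan (circles), and the medians of all genes as lines. VEGFA, HIF1A and EPAS1 lie above both lines, and KDR, FLT1, CDH5 and TEK lie lowest, between 0.50 and 1.16 reads per kb.

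Between breeds, the ratios of the 10 genes ran from -0.13 for PECAM1 to 0.79 for TEK. Their median was 0.18, against -0.01 over the 16361 genes with at least 50 reads, whose middle 50% lay between -0.15 and 0.13. With clean reads as the scale, the median of the 10 genes turned to -0.02, and it stayed 0.19 above the median of all genes. The ratio was above 0 in 7 of the 10 genes, or in 5 with clean reads, against 47.9% or 17.8% of all genes. The interval lay above 0 for KDR, TEK, ANGPT1 and EPAS1, and below 0 for none. Over all genes, it lay above 0 for 22.0% and below 0 for 26.3%. With clean reads the same 4 genes had an interval above 0, against 5.50% of all genes, and VEGFA, HIF1A, PECAM1 and ERG had one below 0, against 60.3% of all genes. A ratio of 0.5 or more was reached by KDR and TEK, as by 4.41% of all genes, and a ratio of -0.5 or less by none of the 10, against 4.17% of all genes. KDR and TEK were also among the members with the fewest reads.

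**Figure D2:**
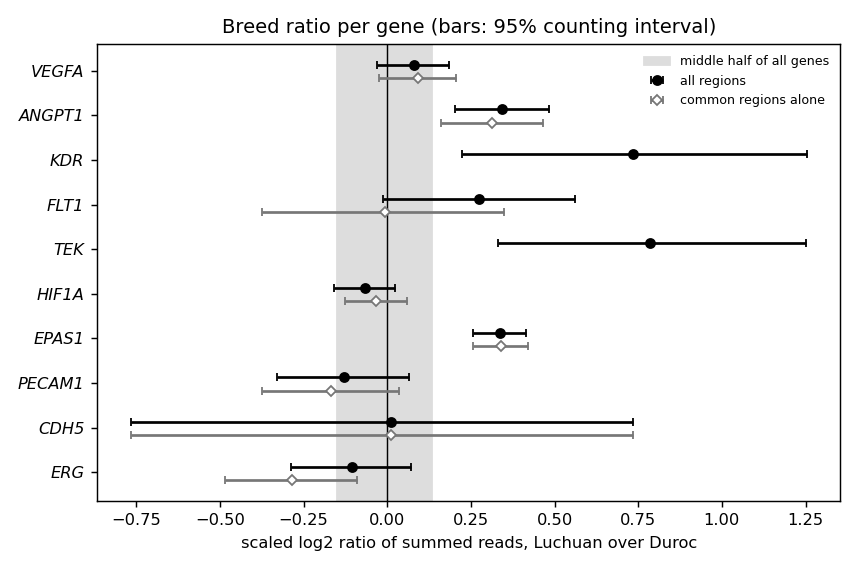
Scaled log2 ratio of summed reads, Luchuan over Duroc, for each gene over all its regions (filled circles) and over the regions common to both breeds (open diamonds), with 95% counting intervals as bars and the middle 50% of all genes in gray. EPAS1 and ANGPT1 lie to the right of the gray band with both sets of regions (0.34 and 0.34 over all regions), while KDR and TEK have no common region; with clean reads as the scale all ratios move left by the same amount and VEGFA and CDH5 turn below 0.

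Of the ligands, VEGFA (vascular endothelial growth factor A, chr7:38746393-38762282) is the main growth signal for new capillaries. Its 8 regions held 1207 Luchuan and 1687 Duroc reads, a ratio of 0.08 (-0.03 to 0.19) that turned to -0.12 with clean reads. VEGFA was thus at the 66.4 percentile of all gene ratios. Both ends of the gene were open, and 87.7% of its reads lay in the 5 regions within 2 kb of an end.

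The strongest VEGFA region, chr7:38745357-38746251, was centered 0.589 kb outside the lower-coordinate end. It held 579 Luchuan and 798 Duroc reads, which placed it at the 97.6 percentile of all regions by reads. Its ratio was 0.10 (-0.06 to 0.25). Next to it, just inside the gene, chr7:38747078-38747546 held 246 and 336 reads with a ratio of 0.11, and chr7:38747759-38747978 held 88 and 129 reads with a ratio of 0.01. All 3 regions at this end had a ratio between 0.01 and 0.11 and an interval that contained 0. At the other end, chr7:38762340-38762958 held 124 and 181 reads with a ratio of 0.02, and chr7:38763304-38763457, a Duroc-specific region, held 18 and 40 reads with a ratio of -0.55 (-1.48 to 0.25).

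ANGPT1 (angiopoietin 1, chr4:29925203-30233434) is the TEK ligand that stabilizes vessels. Its gene body of 308 kb held 15 regions, all inside the gene and none within 2 kb of an end. They summed to 780 Luchuan and 907 Duroc reads, a ratio of 0.34 (0.20 to 0.48), at the 92.0 percentile of all genes. Over the 7 common regions alone the ratio was 0.31 (0.16 to 0.47). With clean reads it was 0.15.

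Most ANGPT1 reads came from a cluster of 3 regions near 8 to 10 kb from the lower-coordinate end, which held 418 Luchuan and 454 Duroc reads and had a ratio of 0.44 (0.25 to 0.64). In this cluster the region with the most reads, chr4:29933047-29933496, held 183 and 223 reads with a ratio of 0.28 (-0.01 to 0.56). Its neighbor chr4:29933610-29934206 held 185 and 177 reads, so Luchuan exceeded Duroc even before scaling, with a ratio of 0.62 (0.32 to 0.93). The next strongest, chr4:30111100-30111652, held 133 and 186 reads and had a ratio of 0.08. The ratio was above 0 in 11 of the 15 regions, against 49.2% of all regions, and the remaining regions went down to -0.38. On the clean-read scale the ratio was above 0 in 10 of the 15, against 32.4% of all regions. The highest ratios stood in narrow Luchuan-specific regions with few reads. One of them, chr4:30065989-30066138, held 13 Luchuan and 4 Duroc reads with a ratio of 2.05 (0.57 to 4.34), and chr4:30143433-30143582 held 16 and 7 with a ratio of 1.65 (0.39 to 3.28).

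Of the receptors, KDR (VEGF receptor 2, chr8:41809116-41856379) carries most of the VEGFA signal in endothelial cells. It had 3 regions, all Luchuan-specific and all in a row at the upper-coordinate end with gaps of 42 to 89 bases. Together they held 70 Luchuan and 62 Duroc reads, a ratio of 0.73 (0.22 to 1.25), at the 97.7 percentile of all genes, and 0.54 with clean reads. The median ratio of all Luchuan-specific regions was similar, 0.77, or 0.58 with clean reads. The widest of the 3, chr8:41856267-41856581, was centered 0.045 kb from the gene end and held 38 and 33 reads with a ratio of 0.76 (0.05 to 1.48). The flanking ones, chr8:41856028-41856177 and chr8:41856624-41856773, held 16 and 16 reads and 16 and 13 reads. Their ratios were 0.56 and 0.84, with intervals that contained 0. No region of KDR was found in the rest of its 47.3 kb body or in the flanks.

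Outside the 10 kb flank, the summed reads around KDR had the opposite direction. The 6 regions between 10 and 100 kb from the gene held 176 Luchuan and 468 Duroc reads, a ratio of -0.84 (-1.11 to -0.60). All 3 KDR regions were called as peaks in Luchuan alone, so the sign of their ratio is not independent of that choice.

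FLT1 (VEGF receptor 1, chr11:5620698-5797095) binds VEGFA tightly and serves in part as a decoy. Its 6 regions held 186 Luchuan and 227 Duroc reads, a ratio of 0.28 (-0.01 to 0.56), and none lay within 2 kb of an end. Over its 2 common regions the ratio was -0.01. These were chr11:5653703-5654189, the region with the most reads, with 72 and 96 reads and a ratio of 0.15, and chr11:5682367-5682671 with 37 and 66 reads and a ratio of -0.26. The 3 Luchuan-specific regions were higher in Luchuan, as were 92.1% of all regions of this class. Their ratios went up to 1.42 (0.31 to 2.75) at chr11:5719607-5719789 with 19 and 10 reads. Another of them, chr11:5611744-5611928 with 14 and 8 reads, lay in the body of the neighboring gene PAN3. As with KDR, the regions between 10 and 100 kb from FLT1 were lower in Luchuan when summed: 8 regions held 213 and 593 reads, a ratio of -0.91 (-1.15 to -0.69).

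TEK (the angiopoietin receptor TIE2, chr1:195938177-196052294) had 5 regions with 89 Luchuan and 76 Duroc reads. Its ratio of 0.79 (0.33 to 1.25) was the highest of the 10 genes and at the 98.0 percentile of all genes. All 5 regions were above 0, from 0.47 to 2.15, and none was common to both breeds or within 2 kb of an end. Of the 5, 4 were Luchuan-specific, a class in which 92.1% of all regions were above 0. The most reads of TEK were found at the Duroc-specific region chr1:196045765-196045947, with 29 and 31 reads and a ratio of 0.47 (-0.32 to 1.24). The highest ratio, at chr1:196060510-196060659 in the flank, came from 14 and 4 reads (0.70 to 4.43). The surroundings of TEK held just 2 regions, with 73 and 62 reads and the same ratio of 0.79 (0.29 to 1.31).

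Summed over KDR, FLT1 and TEK, 345 Luchuan and 365 Duroc reads gave a ratio of 0.48 (0.26 to 0.70), and 0.29 with clean reads. The ligands summed to 1987 and 2594 reads, a ratio of 0.18 (0.09 to 0.26), which turned to -0.02 with clean reads. Of the 14 receptor regions, 10 were Luchuan-specific, a class defined by a peak in Luchuan alone.

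Of the oxygen-sensing factors, HIF1A (HIF-1alpha, chr1:190625436-190673926) acts in nearly all cell types. It held 1645 Luchuan and 2545 Duroc reads in 12 regions, a ratio of -0.07 (-0.16 to 0.02) near the middle of all genes, or -0.26 with clean reads. The strongest region, chr1:190624734-190625632, covered the lower-coordinate end and held 522 and 755 reads, a ratio of 0.03 (-0.13 to 0.19). Directly beside it, chr1:190625656-190626143 held 201 and 271 reads with a ratio of 0.13. Both intervals at this end contained 0.

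Inside the HIF1A body the 5 Duroc-specific regions held 28 to 111 reads of both breeds, and 4 of the 5 were lower in Luchuan. This class is defined by a peak in Duroc alone, and just 22.2% of all Duroc-specific regions were above 0. The lowest of the 5, chr1:190641320-190641478, held 6 and 22 reads with a ratio of -1.15 (-2.91 to 0.03). A further one, chr1:190647234-190647410, held 11 and 36 reads with a ratio of -1.06 (-2.27 to -0.14). In all, 8 of the 12 HIF1A regions were below 0, and all 12 with clean reads. Over all regions, 49.2% were above 0, or 32.4% with clean reads. Beyond the upper-coordinate end, chr1:190677517-190678188 held 486 and 688 reads with a ratio of 0.06, and it lay in the body of SNAPC1, a gene for a subunit of the small nuclear RNA transcription complex. Its reads cannot be told apart between the neighboring genes.

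EPAS1 (HIF-2alpha, chr3:94167759-94253662) is the related factor that is abundant in endothelial cells. It had 2396 Luchuan and 2801 Duroc reads in 14 regions, and a ratio of 0.34 (0.26 to 0.42), at the 91.7 percentile of all genes. The 10 common regions alone gave the same ratio, 0.34. With clean reads the ratio was 0.14. The interval of EPAS1 lay above that of HIF1A, while the 20 regions around EPAS1 at 10 to 100 kb had a lower ratio, 0.15 (0.06 to 0.24). Around VEGFA and HIF1A the ratio at that distance was higher than at the gene, 0.31 (0.22 to 0.41) and 0.11 (0.03 to 0.19). Around ANGPT1, CDH5 and PECAM1 it was 0.14 (-0.06 to 0.35), 0.18 (0.02 to 0.34) and -0.05 (-0.13 to 0.02).

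The higher Luchuan value was spread over the EPAS1 gene: 13 of its 14 regions were above 0, and 9 had an interval above 0, or 12 and 5 with clean reads. Over all regions these shares were 49.2% and 13.4%, or 32.4% and 6.83% with clean reads. At the upper-coordinate end, 3 regions held 1071 Luchuan and 1327 Duroc reads, a ratio of 0.25 (0.13 to 0.37). The strongest of these, chr3:94253911-94255040, held 603 and 794 reads with a ratio of 0.16 (0.01 to 0.32), and chr3:94252361-94253061 held 396 and 442 reads with a ratio of 0.40 (0.20 to 0.60). Between them, chr3:94253643-94253829 held 72 and 91 reads with a ratio of 0.23. Ratios inside the gene were higher than at this end in several regions. At chr3:94217478-94218039, 161 Luchuan and 145 Duroc reads gave 0.71 (0.38 to 1.05), at chr3:94199495-94199838, 102 and 95 reads gave 0.66 (0.25 to 1.08), and at chr3:94235768-94236187, 108 and 105 reads gave 0.60. The strong inner region chr3:94240398-94241258 held 452 and 564 reads with a ratio of 0.24 (0.06 to 0.42). The nearest region outside the lower-coordinate end, chr3:94165137-94165286, was Luchuan-specific, with 20 and 14 reads and a ratio of 1.05 (0.02 to 2.17).

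**Figure D3:**
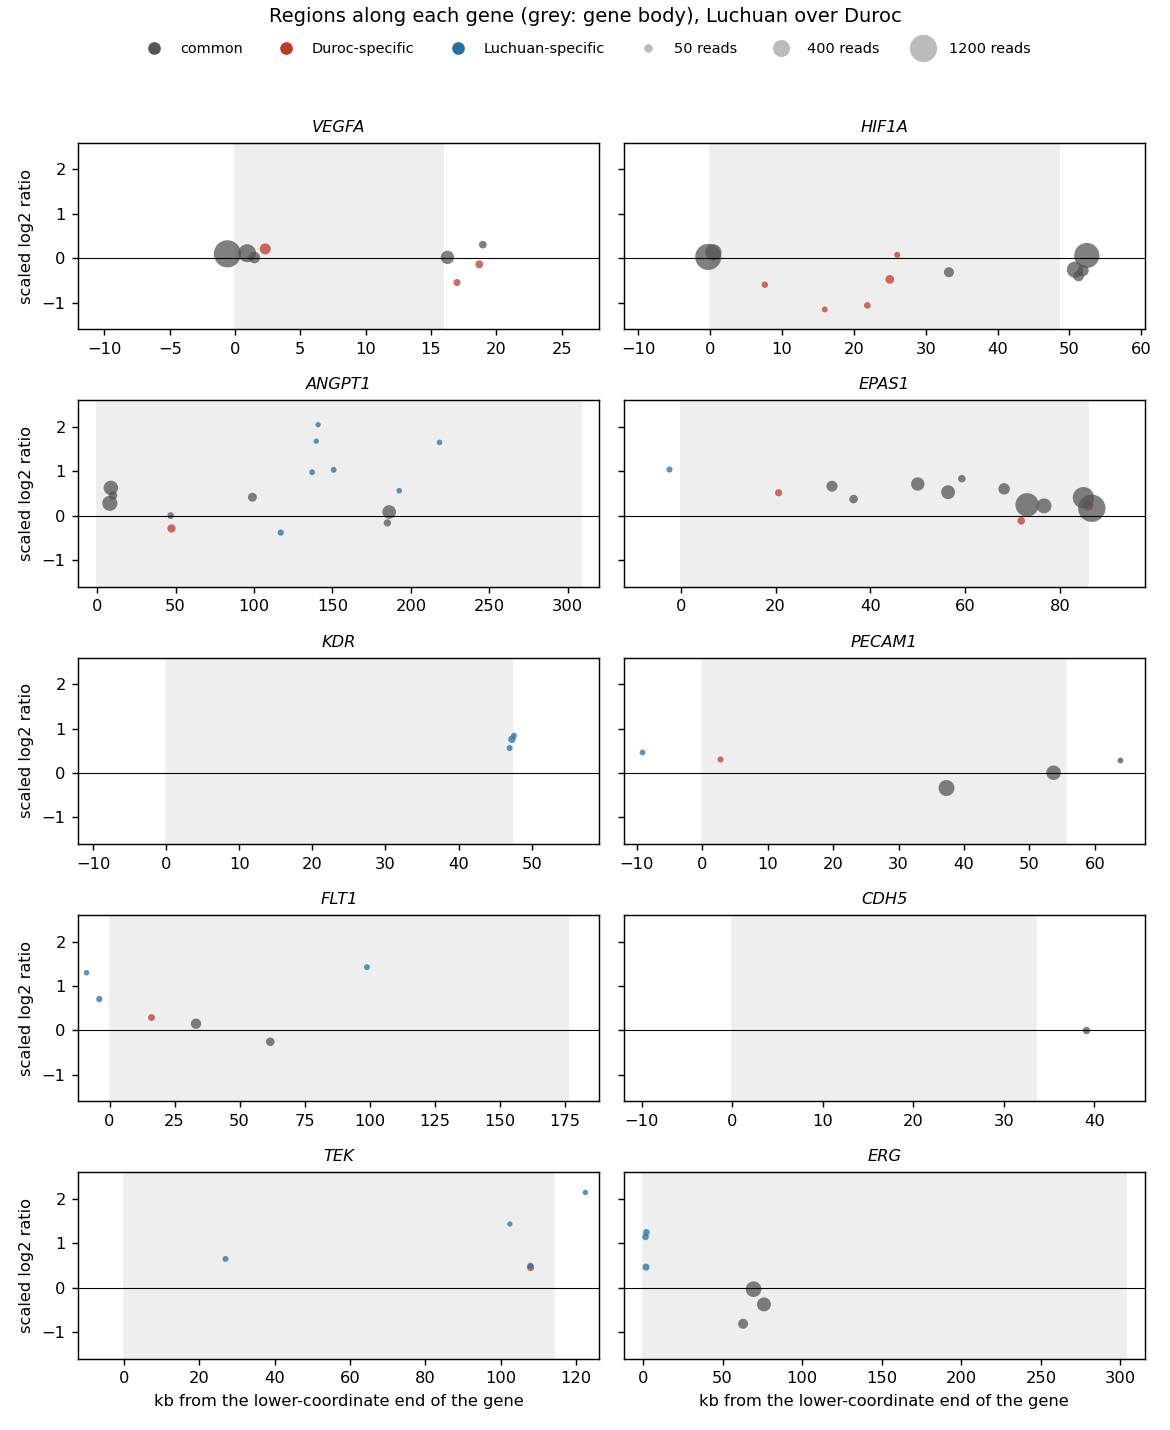
Scaled log2 ratio, Luchuan over Duroc, of each region against its distance from the lower-coordinate end of the gene in kb, with the gene body in gray, the circle area set by the reads of both breeds and the color by region class. In EPAS1, 13 of 14 circles lie above 0 along the gene (12 with clean reads), against 49.2% of all regions (32.4% with clean reads). In ERG, 3 Luchuan-specific regions at the lower end lie above 0, as do 92.1% of all Luchuan-specific regions. Farther inside ERG, 3 common regions lie below 0.

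Of the junction proteins, PECAM1 (CD31, chr12:14667643-14723296) joins endothelial cells to each other and is found on platelets and leukocytes too. Its 5 regions held 345 Luchuan and 558 Duroc reads, a ratio of -0.13 (-0.33 to 0.06). The most reads lay inside the gene at chr12:14704616-14705333, with 156 and 292 reads and a ratio of -0.34 (-0.63 to -0.06). The region near the upper-coordinate end, chr12:14721034-14721659, held 148 and 218 reads and a ratio of 0.01. Without the inner region the PECAM1 ratio turned to 0.07, so its sign rested on that 1 region.

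CDH5 (VE-cadherin, chr6:27108560-27142145), the adhesion molecule of endothelial junctions, had a single region, chr6:27147505-27147727, which was centered 5.47 kb beyond the upper-coordinate end. It held 27 Luchuan and 40 Duroc reads, a ratio of 0.01 (-0.77 to 0.73), and -0.18 with clean reads or -0.04 with a factor that varied with the signal. A difference between breeds was not detectable at this depth.

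ERG (chr13:201999237-202302572), an ETS-family factor that maintains endothelial identity, had 415 Luchuan and 660 Duroc reads in 6 regions. Its ratio was -0.11 (-0.29 to 0.07), the sum of regions of both directions. At the lower-coordinate end 3 Luchuan-specific regions in a row between positions 202000736 and 202001552 held 85 Luchuan and 66 Duroc reads, a ratio of 0.92 (0.45 to 1.41). This class is defined by a peak in Luchuan alone, and 92.1% of all Luchuan-specific regions were above 0. Among the 3 regions, chr13:202001334-202001552 held 28 and 17 reads with a ratio of 1.25, and chr13:202000736-202000937 held 29 and 19 with a ratio of 1.15. Farther inside lay 3 common regions, which together had a ratio of -0.28 (-0.49 to -0.09). Of these, chr13:202068508-202069053 held the most reads, 172 and 260, with a ratio of -0.03, while chr13:202074948-202075604 held 115 and 221 with a ratio of -0.38 (-0.72 to -0.05) and chr13:202062016-202062333 held 43 and 113 with a ratio of -0.81 (-1.37 to -0.31). The 7 regions at 10 to 100 kb from ERG had a ratio of 0.39 (0.24 to 0.53).

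A region within 2 kb of a gene end was present in 6 of the 10 genes, namely VEGFA, KDR, HIF1A, EPAS1, PECAM1 and ERG. Over all genes this share was 73.9%. ANGPT1, FLT1, TEK and CDH5 had none there.

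Region by region, the median ratio of the 75 was 0.28, against -0.01 over all regions, and 55 of them (73.3%) were above 0, against 49.2% of all. With clean reads the medians were 0.08 and -0.20, and 42 (56.0%) against 32.4% were above 0. No region of the 49 with at least 50 reads reached a 2-fold difference (a log2 ratio of 1 or more, or -1 or less). Over all regions with at least 50 reads, 2.45% were that much higher in Luchuan and 5.22% in Duroc. Without a minimum of reads, 11 of the 75 regions were 2-fold higher in Luchuan and 2 in Duroc, beside 7.41% and 5.34% of all regions. All 11 were Luchuan-specific with fewer than 50 reads. The interval lay above 0 in 19 regions (25.3%) and below 0 in 4 (5.33%), beside 13.4% and 15.7% of all regions. With clean reads these counts were 13 and 11, beside 6.83% and 28.2% of all regions.

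The class of the regions went along with these ratios. Luchuan-specific regions made up 22 of the 75 (29.3%, against 19.1% of all regions), with a median of 16 Luchuan and 13.5 Duroc reads and ratios from -0.38 to 2.15. Of the 22, 21 (95.5%) were above 0, against 92.1% of all Luchuan-specific regions. Duroc-specific regions made up 15 of the 75, against 31.8% of all regions. Their median ratio was -0.12, against -0.36 for all Duroc-specific regions. The 38 common regions had a median ratio of 0.11, and 27 of them were above 0, against 34384 of the 68776 common regions of the whole table. With clean reads the median turned to -0.09 and 15 of the 38 were above 0, against 25.7% of all common regions. HIF1A, VEGFA and CDH5 had no Luchuan-specific region, and KDR had no other.

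**Figure D4:**
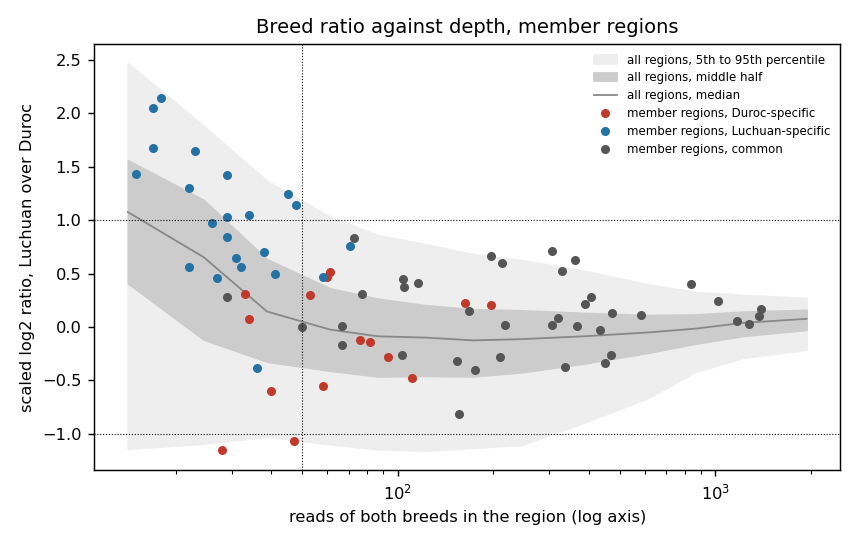
Scaled log2 ratio, Luchuan over Duroc, of the 75 regions against their reads in both breeds (log axis), colored by class, over the median, middle 50% and 5th to 95th percentile of all regions; dotted lines mark 50 reads and log2 ratios of 1 and -1. All points beyond a dotted ratio line lie left of 50 reads, and the 7 regions with at least 500 reads lie between 0 and 0.5 (2 of them above 0 with clean reads).

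The ratio also moved with the number of reads. In the 26 regions under 50 reads the median ratio was 0.77, against 0.28 for all regions of that depth. It was 0.15 against -0.05 from 50 to 100 reads, 0.18 against -0.11 from 100 to 200 reads, and 0.05 against -0.10 from 200 to 500 reads. With clean reads these 3 medians turned to -0.04, -0.01 and -0.15, against -0.25, -0.30 and -0.29 for all regions. The 7 regions with 500 reads or more, which belonged to VEGFA, HIF1A and EPAS1, were all above 0, with a median of 0.11 against 0.00 for all such regions, of which 50.7% were above 0. With clean reads 2 of these 7 were above 0, with a median of -0.08 against -0.19, and 15.6% of all such regions were. The part that depth and region class had in the ratios of single genes was not tested.

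Other genes of the pathways were read from lists that name the remaining ligands, receptors and sensors. The counts of list genes are on the scale of the common regions. On it, 47.9% of all genes were above 0 (17.8% with clean reads), 4.41% were past 0.5 and 4.17% past -0.5. In the VEGF and angiopoietin list, 7 of 12 genes were above 0 and the median was 0.04, or -0.16 with clean reads. PTPRB, the vascular phosphatase that acts on TEK, was past 0.5 with 109 Luchuan and 98 Duroc reads and a ratio of 0.71. TIE1, the co-receptor of TEK, was past -0.5 with 168 and 406 reads and a ratio of -0.71, opposite to TEK itself. ANGPT4 and ANGPT2, further TEK ligands, had ratios of 0.43 and 0.26. In the oxygen-sensing list, 3 of 10 genes were above 0, none was past 0.5 in either direction, and the median was -0.05. In the list of hypoxia-induced genes, 5 of 16 were above 0, none was past 0.5 in either direction, and the ratios ran from -0.34 for the demethylase KDM3A to 0.37 for the glycolytic regulator PFKFB3, with a median of -0.05. The ratio of EPAS1 thus stood near the top of the range of hypoxia-induced genes.

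Among the markers of cell types, 23 endothelial genes had 50 reads or more, and 10 were above 0, against 47.9% of all genes. Their median of -0.01 was equal to that of all genes, and it lay on either side of 0 depending on the scaling. Of all genes, 4.41% were past 0.5 and 4.17% past -0.5. SOX7 and FLI1, endothelial transcription factors, were past 0.5 with 40 and 36 reads and 91 and 90 reads. TIE1, LYL1, ACVRL1 and EMCN were past -0.5, with ratios of -0.71, -0.62, -0.57 and -0.51. The endothelial markers other than the 10 genes therefore included both directions. The 4 muscle capillary markers with reads were all above 0, with a median of 0.30, and the interval of CA4 (-0.01 to 0.71) contained 0. AQP1, the water channel of capillaries, was past 0.5 with 164 and 142 reads in 1 region and a ratio of 0.77.

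The lists of markers of other cells in the tissue had medians on both sides of 0. The muscle fiber genes had a median of -0.30, with an interval below 0 in 8 of 10 and MYH4, a fast myosin, at -0.62. Over all genes the interval lay below 0 for 26.3%, or 60.3% with clean reads. The myosin gene MYH1 lies between MYH4 and MYH2, within 10 kb of each, so the intervals of these genes are not independent. The pericyte and smooth muscle markers had a median of 0.18, or -0.02 with clean reads, where ACTA2 was at 0.64 and TAGLN at -0.51, and RGS5 had no region. The fibro-adipogenic markers had a median of 0.22 with COL3A1 at 0.60 and LUM without a region. The lymphatic ones had 0.10 (-0.10 with clean reads), with LYVE1 without a region. The blood cell ones had -0.06, with LCP1 at 0.78 from 49 Luchuan and 42 Duroc reads and PTPRC at -1.06 from 28 and 88. The markers of other tissues, of which SYP and APOA1 held most of the reads, had a median of 0.12, or -0.07 with clean reads. ALB was at 1.21 from 35 Luchuan and 22 Duroc reads, and SFTPC at 0.84. The part of these cell types in the ratios of the 10 genes was not tested.

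**Figure D5:**
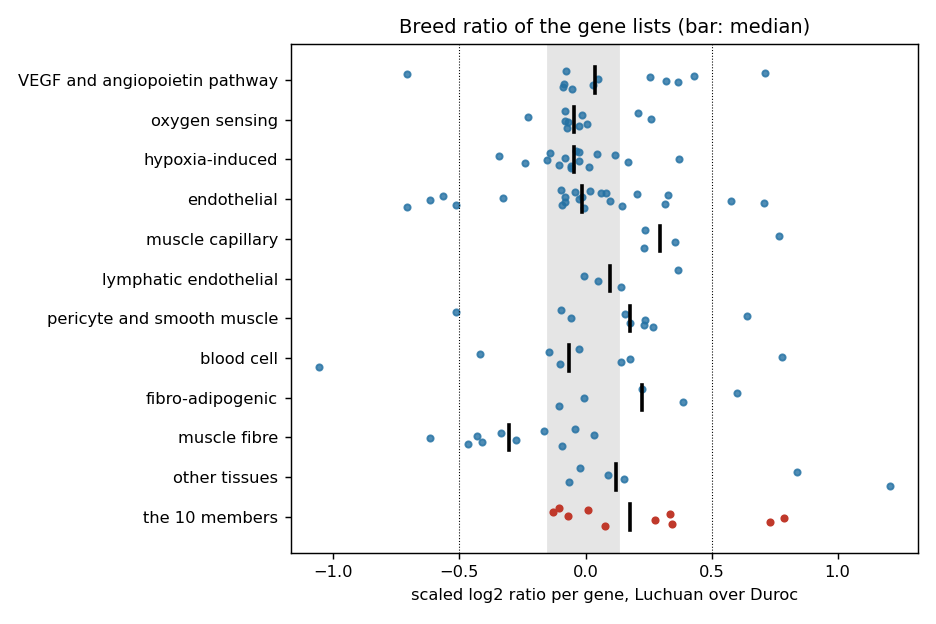
Scaled log2 ratio per gene, Luchuan over Duroc, for each gene list and the 10 genes (last row), with the list median as a bar, the middle 50% of all genes in gray and dotted lines at 0.5 and -0.5. The 10 genes have a median of 0.18, endothelial markers -0.01 and muscle fiber genes -0.30; with clean reads as the scale all move left by the same amount, and the medians of the 10 genes and of the VEGF, lymphatic, pericyte and other-tissue lists turn below 0.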

How the data were processed

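Per the labels and the submitters' processing notes, the authors used Trimmomatic 0.36 for the ATAC-seq reads, Bowtie2 for alignment on the Sscrofa11.1 build and MACS2 for peaks. They deposited 1 table of intervals, classed as common or breed-specific, with raw read counts in 1 column per breed. The treatment of duplicates and of the transposase offset, the tool of the breed comparison and whether the counts pool all 3 boars are not given in the sources used here. The table's own columns of rescaled log2 fold change, average log2 signal and p-value were not used.

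Common intervals that overlapped or adjoined were joined into 1 region, whose reads are those of its longest interval. Interval starts were read as counted from 0 and are printed as counted from 1. Midpoints were assigned to 19533 RefSeq protein-coding genes of chromosomes 1 to 18, X and Y. The gene table held no strand, so ends are named by coordinate. Counts were scaled by the median ratio over common regions (1.48), with a pseudocount of 1. Regions were called at a log2 ratio of 1 and genes at 0.5, with at least 50 reads, and surroundings reached to 100 kb. Intervals are 95% Clopper-Pearson intervals and cover counting error only. Without replicates no test was made. Median reads per region were 38 in Luchuan and 61 in Duroc.

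Named were all 10 genes, in each the region with the most reads, those nearest its ends and any past 2-fold with 50 reads, and up to 3 list genes past 0.5 in each direction. Further regions and the values of EMCN, ANGPT2, ANGPT4, KDM3A and PFKFB3 were chosen after their values were seen. The members and lists were chosen with earlier results of these data known. One listed gene, EGFL7, was not analysed here. A motif search was not run and no sequence is printed, as no sequence was used here. Alternatives changed the scaling, window, merging, pseudocount and thresholds. The scripts were tested on simulated data, with pandas 2.3.3, SciPy 1.17.1, Matplotlib 3.10.9 and statsmodels 0.14.6 under Python 3.11.15.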

Additional observations from a re-analysis of the deposited data

How the results depend on the processing

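No paired analysis was possible because the count columns carry no replicate, and for the same reason no boar could be left out. The gene ratios stayed inside their counting interval in 138 of 145 gene and setting combinations. Scaling by clean reads moved VEGFA, ANGPT1, HIF1A, EPAS1 and ERG out of it, as did the gene body alone for HIF1A (-0.16) and leaving out the most-read region for PECAM1 (0.07). Clean reads gave a median over the 10 genes of -0.0183, 1 region 2-fold higher in Duroc, 11 regions with an interval below 0, and 417 genes higher in Luchuan and 1690 in Duroc. The range was 0.54 to 0.76 for KDR, 0.47 to 0.97 for TEK, 0.15 to 0.37 for ANGPT1 and 0.14 to 0.40 for EPAS1. Without each gene's most-read region the median was 0.36, and CDH5, which had no other region, dropped out. With common regions alone, chosen after seeing the data, the median was 0.0025, with 4 genes above 0. That median and count left out KDR and TEK, the genes with the highest ratios, which had no common region. This setting gave 9 regions with an interval above 0, and 393 and 430 genes called. With regions of at least 50 reads, also chosen after seeing the data, the median over the 10 genes was 0.0605. No minimum of reads gave 11 and 2 regions past 2-fold in Luchuan and Duroc, a log2 threshold of 0.58 gave 6 and 1, and a 99% interval gave 12 and 1 regions off 0. A gene threshold of 0.3 called 1590 and 1728 genes and one of 1 called 188 and 135. With 2 kb flanks the pericyte list had a median of 0.23 and the muscle fiber list -0.34. The cause of these shifts was not tested. Depth limits KDR, TEK and CDH5 most.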
